A study of Mus musculus with 2 samples.

Results

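Expression of 9 genes of the retinoid (visual) cycle of the retinal pigment epithelium (RPE) was described in single barcodes of dissociated mouse retina: *Stra6*, *Ttr*, *Lrat*, *Rpe65*, *Rdh5*, *Rdh10*, *Rlbp1*, *Rgr*, and *Rrh*. The genes were chosen by symbol, and all 9 were found among the 32285 genes of the matrices. Droplet-based 3′ scRNA-Seq gave 1 library of WT retina and 1 library labelled ND6, both replicate 1, from male C57BL/6J mice aged 7 months. The mutant mice carry the mtDNA ND6 13997 G>A change, which the study describes as homoplasmic throughout the body and therefore not limited to a retinal cell type. Whether a library held 1 mouse or pooled retinas is not given in the sources used here, and further libraries of the study were not analysed here. With 1 library per genotype, no test was possible, and every interval below is a 95% interval for counting error only.

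In the visual cycle, light turns the 11-cis-retinal bound to opsin into all-trans-retinal, and the RPE turns it back. Retinol reaches the RPE bound to RBP4 and transthyretin, is stored as an ester, isomerized, oxidized to 11-cis-retinal, and handed to photoreceptors. Müller cells, the main glia of the retina, hold some of the same proteins and are thought to supply cones.

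*Stra6* (chromosome 9, 58063788 to 58153996, plus strand; GRCm38, GENCODE) encodes the RBP4 receptor that takes up retinol, and *Ttr* encodes transthyretin, the carrier of RBP4 and thyroid hormone. *Lrat* (chromosome 3, 82892579 to 82903973, minus strand) encodes the enzyme that esterifies retinol, and *Rpe65* (chromosome 3, 159599175 to 159625321, plus strand) encodes the isomerase that makes 11-cis-retinol from the ester. *Rdh5* (chromosome 10, 128913593 to 128922888, minus strand) and *Rdh10* (chromosome 1, 16105774 to 16133734, plus strand) encode retinol dehydrogenases. *Rlbp1* (chromosome 7, 79374870 to 79387048, minus strand) encodes CRALBP, which binds 11-cis-retinoids in both RPE and Müller cells. *Rgr* (chromosome 14, 37034909 to 37048964, minus strand) and *Rrh* (chromosome 3, 129804408 to 129822587, minus strand) encode RGR opsin and peropsin, opsins that are found outside the photoreceptor cells.

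The promoters of 3 members are shown as a description, and no result rests on them. Of the windows read, only these 3 held a motif marked below. *Rpe65* and *Rgr* were found mostly in RPE barcodes, as were *Rdh5*, *Lrat*, and *Stra6*, while *Rlbp1* was shared with Müller-like barcodes. Each run holds the 250 bases before a transcription start listed by RefSeq (GRCm38.p6), written 5′ to 3′ on the strand of the gene. Capitals mark TAATCC, the core that OTX and CRX homeodomain factors bind, and CATGTG, the core of the motif that MITF binds, on either strand. These positions are chr3:159598931-159599180 (plus strand) for *Rpe65*, chr14:37049015-37049264 (minus strand) for *Rgr*, and chr7:79387028-79387277 (minus strand) for *Rlbp1*.
Rpe65: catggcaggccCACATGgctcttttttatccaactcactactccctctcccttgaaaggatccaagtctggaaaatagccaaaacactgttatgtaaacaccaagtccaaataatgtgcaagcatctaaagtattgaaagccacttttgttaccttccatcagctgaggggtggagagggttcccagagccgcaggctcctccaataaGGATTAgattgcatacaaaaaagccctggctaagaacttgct
Rgr: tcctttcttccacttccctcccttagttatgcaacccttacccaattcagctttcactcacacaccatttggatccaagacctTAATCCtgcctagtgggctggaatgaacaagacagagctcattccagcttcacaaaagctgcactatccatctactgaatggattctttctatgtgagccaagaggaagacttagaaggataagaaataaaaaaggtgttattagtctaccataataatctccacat
Rlbp1: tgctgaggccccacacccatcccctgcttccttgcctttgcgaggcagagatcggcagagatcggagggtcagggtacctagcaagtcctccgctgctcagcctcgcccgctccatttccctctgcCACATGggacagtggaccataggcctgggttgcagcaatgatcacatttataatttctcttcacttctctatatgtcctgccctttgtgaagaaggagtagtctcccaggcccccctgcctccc

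*Rpe65* held TAATCC on the reverse strand, beginning 42 bases before the start, and CATGTG on the reverse strand, 239 bases before it. *Rgr* held TAATCC 167 bases before the start, and *Rlbp1* held CATGTG on the reverse strand, 124 bases before the start. No 2 matches overlap in these windows. Of 32851 promoter windows of the same length, 6.25% held TAATCC and 12.3% held CATGTG. The windows of *Lrat*, *Rdh5*, *Rrh*, and all 4 listed starts of *Stra6* held neither. No window was read for *Rdh10* or *Ttr*. These matches describe letters and not binding sites.

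A barcode was kept when it held more than 400 UMIs and more than 200 genes with no more than 20% of its UMIs mitochondrial, which left 12529 WT and 18395 mutant barcodes with a median of 1878 and 1416 UMIs. The matrices hold 77958836 WT and 80358255 mutant UMIs, and 59 barcode sequences occur among the kept barcodes of both libraries. RPE barcodes were those with at least 1 UMI of *Dct*, *Slc16a8*, and *Best1* together and with at least 0.5% of their UMIs from *Ttr*. The rule found 228 WT barcodes, or 1.82% (1.59% to 2.07%), and 776 mutant barcodes, or 4.22% (3.93% to 4.52%), of which 1 barcode sequence is shared. The libraries differed in depth here: 56 WT and 604 mutant RPE barcodes had fewer than 2000 UMIs, and 172 of each had 2000 UMIs or more. Among the latter, the median was 5989 UMIs in WT and 3019 in the mutant library.

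Because *Ttr* is part of the rule, its level in RPE barcodes is a description of the choice, and median log2 ratios of the members below are over the other 8 genes. *Best1* gave 1 UMI in the whole WT matrix and 9 in the mutant matrix, and none in RPE barcodes, so the rule rested on *Dct* (dopachrome tautomerase, a melanin enzyme) and *Slc16a8* (the RPE lactate transporter). *Slc16a8* was detected in 217 of 228 WT and 714 of 776 mutant RPE barcodes, and *Dct* in 196 and 434. *Slc16a8* alone admitted 32 WT and 342 mutant barcodes. Of the 11 RPE markers, 10 were detected in RPE barcodes of 2000 UMIs or more in each library, while the 3 markers of ciliary epithelium were at 0 there. The 3 melanocyte markers together took 0.00692% of WT and 0.00325% of mutant UMIs in those barcodes. A clustering that left out all 9 genes placed 226 of 228 WT and 748 of 776 mutant RPE barcodes in a single cluster with RPE markers. That cluster held 295 WT and 915 mutant barcodes in all. *Dct* and *Slc16a8* were not left out of the clustering and are in the RPE marker list, so this overlap is not independent of the rule. At a higher clustering resolution the RPE-like barcodes were divided. A cluster with *Kcnj13* and *Slc16a8* among its leading genes held 160 WT and 832 mutant barcodes, at medians of 1251.5 and 974.5 UMIs. Another, with *Mlana*, *Tyrp1*, *Dct*, and *Tyr*, held 158 and 99, at medians of 6476.5 and 2625 UMIs. Just outside the limit, gate-positive barcodes with 0.25% to 0.5% *Ttr* numbered 10 in WT and 31 in the mutant library, and the other 8 genes took 0.24% and 0.233% of their UMIs. Just inside, with 0.5% to 1% *Ttr*, there were 15 and 45 barcodes, in which the other 8 genes took 0.48% and 0.365%. Doublets were not removed.

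Levels are UMIs summed over the barcodes of a group and scaled to 1000000 UMIs of that group (CPM). They are not scaled by length, since the assay counts 3′ ends, so different genes are not ranked here. In RPE barcodes of 2000 UMIs or more, the median barcode had a UMI for all 9 genes in WT and for 8 in the mutant library. All 9 genes were detected in 127 of 172 WT (73.8%) and in 73 of 172 mutant barcodes (42.4%). Below 2000 UMIs the median was 7 genes in both libraries, and 8 of 56 WT (14.3%) and 47 of 604 mutant barcodes (7.78%) had all 9. The 9 genes made up a median of 9.09% of a WT barcode's UMIs and 9.33% of a mutant barcode's UMIs at 2000 UMIs or more, and 7.09% and 9.2% below. These counts and medians include *Ttr*, which the rule required, and so partly describe the choice. Without *Ttr*, the other 8 genes took 2.76% of summed WT and 2.01% of summed mutant UMIs at 2000 UMIs or more. Below, they took 2.12% and 2.56%.

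**Figure D1:**
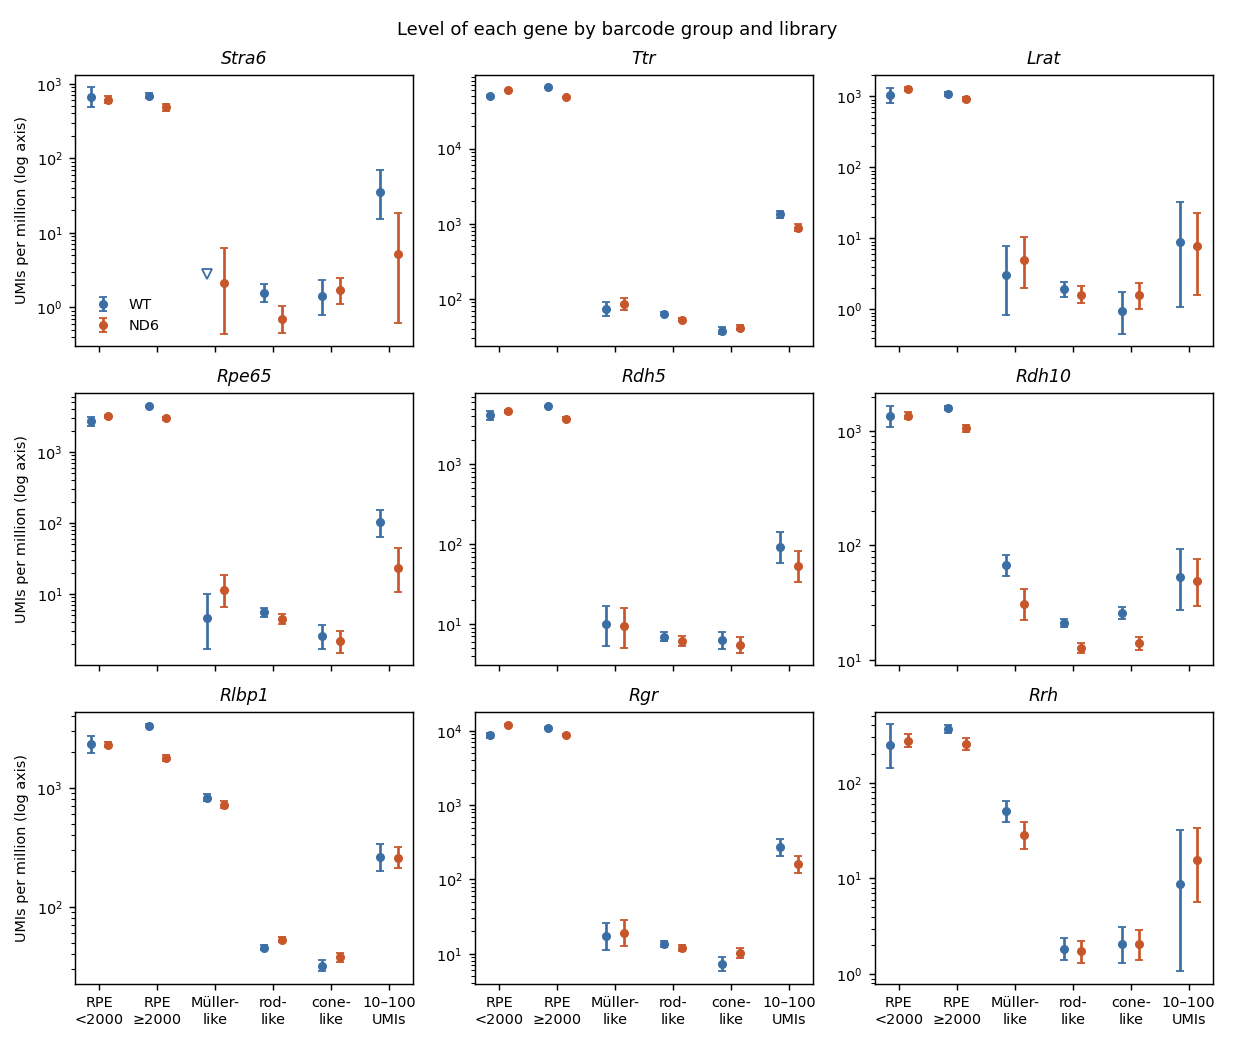
Level of each of the 9 genes (CPM, log axis) in RPE barcodes below and at or above 2000 UMIs, in Müller-like, rod-like, and cone-like barcodes, and in barcodes of 10 to 100 UMIs. Points are sums over 1 WT (blue) and 1 ND6 (orange) library, bars are exact Poisson 95% intervals, and the open triangle is the upper limit of *Stra6* in WT Müller-like barcodes, where 0 UMIs were counted. *Rlbp1*, *Rdh10*, and *Rrh* stand higher in Müller-like than in rod-like barcodes in both libraries.

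For uptake, *Stra6* stood at 674 CPM in the shallower WT RPE barcodes and 614 CPM in the shallower mutant ones (log2 ratio -0.13, -0.59 to 0.36). In the deeper ones it stood at 695 CPM in WT and 485 CPM in the mutant library (-0.52, -0.70 to -0.34). The intervals of the 2 libraries overlapped in the shallower barcodes and not in the deeper ones. *Ttr*, which the rule used, stood at 49686 and 60310 CPM in the shallower WT and mutant barcodes, and at 65641 and 48486 CPM in the deeper ones. Its order between the libraries was thus opposite in the 2 depth ranges.

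For storage and isomerization, *Lrat* stood at 1035 CPM in WT and 1262 CPM in mutant barcodes below 2000 UMIs (0.29, -0.08 to 0.67). At 2000 UMIs or more it stood at 1075 and 914 CPM (-0.23, -0.37 to -0.10). *Rpe65* stood at 2713 CPM in WT and 3184 CPM in mutant barcodes below 2000 UMIs (0.23, 0.01 to 0.46). At 2000 UMIs or more, *Rpe65* stood at 4372 CPM in WT and 2978 CPM in mutant barcodes (-0.55, -0.63 to -0.48). The isomerase gene was therefore a little higher in the shallower and lower in the deeper mutant barcodes, and *Lrat* took the same order, with an interval that spans 0 in the shallower barcodes.

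For oxidation, *Rdh5* stood at 4141 CPM in WT and 4626 CPM in mutant barcodes below 2000 UMIs (0.16, -0.02 to 0.35), and at 5335 and 3760 CPM at 2000 UMIs or more (-0.50, -0.57 to -0.44). *Rdh10* stood at 1349 and 1355 CPM in the shallower barcodes (0.01, -0.32 to 0.34), an interval open to a difference in either direction. It stood at 1583 and 1059 CPM in the deeper ones (-0.58, -0.70 to -0.46). For binding, *Rlbp1* stood at 2321 CPM in WT and 2299 CPM in mutant barcodes below 2000 UMIs (-0.01, -0.26 to 0.24). At 2000 UMIs or more, *Rlbp1* stood at 3301 and 1787 CPM (-0.88, -0.98 to -0.80), the lowest log2 ratio of the 9 genes.

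For the opsins, *Rgr* stood at 8705 CPM in WT and 11940 CPM in mutant barcodes below 2000 UMIs (0.46, 0.33 to 0.58), and at 10919 and 8822 CPM above (-0.31, -0.35 to -0.27). *Rrh* rested on 16 WT and 166 mutant UMIs in the shallower barcodes (251 and 276 CPM; 0.14, -0.61 to 0.98). In the deeper ones it stood at 363 CPM in WT and 256 CPM in mutant barcodes (-0.50, -0.75 to -0.25).

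Of the 8 genes other than *Ttr*, 6 had a higher and 2 a lower level in mutant barcodes below 2000 UMIs. The median log2 ratio was 0.15, and the median over all 4120 genes with at least 20 UMIs was also 0.15. At 2000 UMIs or more, 0 had a higher and 8 a lower level. The median was -0.51, against 0.17 over 8030 genes. None of the 9 was past a 2-fold difference in either range. Below 2000 UMIs, 20.7% of all genes were past 2-fold higher and 5.92% past 2-fold lower in the mutant library. At 2000 UMIs or more, 15.2% were past 2-fold higher and 4.4% past 2-fold lower.

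The order in the deeper barcodes depended on which barcodes entered. WT barcodes were deeper within that range, and rod RNA moved with depth in opposite ways in the 2 libraries. The 10 rod markers took 1.21% of UMIs in WT and 3.27% in mutant barcodes of 2000 UMIs or more, and 2.82% and 2.49% below. Among the deeper barcodes, 13 of 172 in WT (7.56%) and 42 of 172 in the mutant library (24.4%) had more than 5% rod-marker UMIs, against a median of 8.82% and 9.01% in rod-like barcodes. With the 111 WT and 90 mutant barcodes that had at most 1%, the median of the 8 genes was 0.06, with 5 genes higher and 3 lower. In those barcodes *Rpe65* stood at 4933 CPM in WT and 5025 CPM in the mutant library (0.03, -0.06 to 0.11). *Rlbp1* stood at 3723 and 2923 CPM (-0.35, -0.46 to -0.24). *Rgr* (12157 and 14739 CPM), *Lrat* (1188 and 1450 CPM), and *Rdh5* (5905 and 6388 CPM) were higher in the mutant library, with Poisson intervals apart. In the 61 WT and 116 mutant barcodes of 2000 to below 4000 UMIs, a range chosen after the values were seen, the median was -0.06, with 4 genes higher and 4 lower. *Rpe65* was then higher in the mutant library, at 3043 CPM in WT and 3779 CPM in mutant barcodes (0.31, 0.16 to 0.46), and *Rlbp1* lower, at 3251 and 2348 CPM (-0.47, -0.63 to -0.31). *Rlbp1*, *Rdh10*, and *Stra6* were below 0 under all 14 alternatives tried for the deeper barcodes, from -1.25 to -0.35, from -0.88 to -0.06, and from -0.90 to -0.01. The other 5 genes changed sign under at least 1. Most of these alternatives reuse the same barcodes and some use *Ttr*, so they are not independent checks. Below 2000 UMIs, *Rlbp1*, *Rdh10*, and *Stra6* were below 0 under 6, 7, and 8 of 12 alternatives. The part of rod RNA, of depth, and of the finer RPE-like clusters in these differences was not tested.

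**Figure D2:**
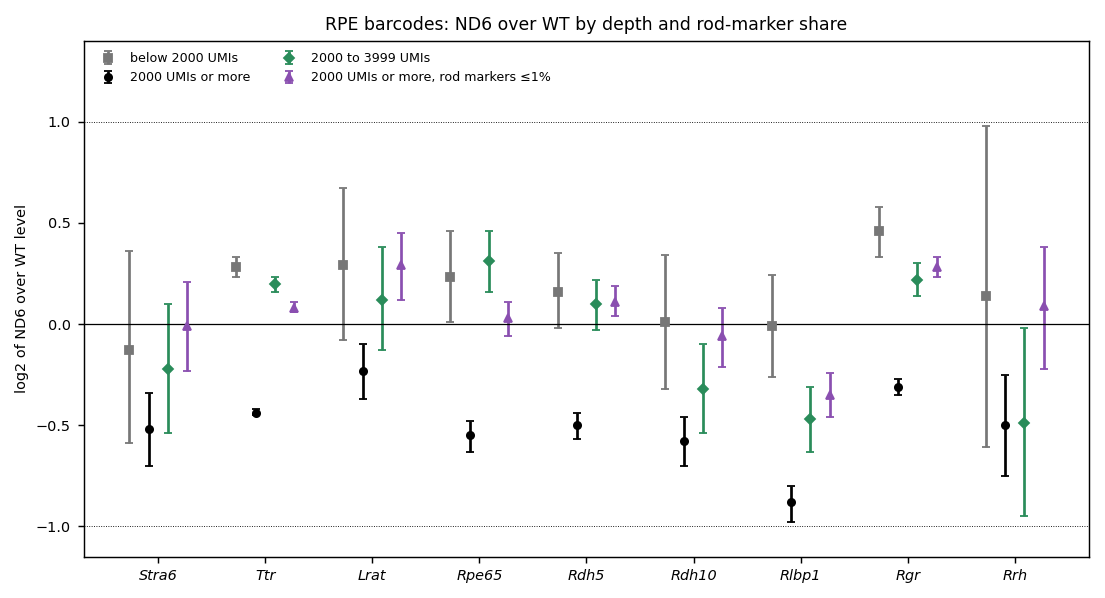
Log2 ratio of the ND6 over the WT level for the 9 genes in RPE barcodes, for 4 choices of barcodes. Bars are exact conditional 95% intervals for counting error, and dotted lines mark a 2-fold difference. All 9 genes lie below 0 at 2000 UMIs or more, whereas only *Rlbp1* has its whole interval below 0 where rod markers take at most 1% of UMIs. *Rgr*, *Lrat*, and *Rdh5* lie above 0 with that choice.

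Within each library, the genes were set against depth in finer steps. In WT, *Rpe65* stood at 1469 CPM in the 23 barcodes below 1000 UMIs, 3095 CPM in the 33 from 1000 to below 2000, 3043 CPM in the 61 from 2000 to below 4000, 4383 CPM in the 53 from 4000 to below 8000, and 4674 CPM in the 58 of 8000 or more. In the mutant library, *Rpe65* stood at 3422, 3042, 3779, 2944, and 1675 CPM in the same ranges, over 341, 263, 116, 43, and 13 barcodes. *Rpe65* was thus highest in the deepest barcodes in WT and lowest there in the mutant library, and *Rdh5* and *Rgr* had the same pattern. In WT, *Lrat* (1011 CPM) and *Rdh10* (1486 CPM) were lower in the deepest barcodes than from 4000 to below 8000 UMIs (1205 and 1758 CPM). *Stra6*, *Rlbp1*, and *Rrh* were not highest in the deepest WT barcodes either. *Rgr* went from 7812 to 11334 CPM between the lowest and the highest of these ranges in WT, and from 13059 to 3623 CPM in the mutant library. The rod markers went the other way, from 2.52% to 1.05% of UMIs in WT and from 1.87% to 5.36% in the mutant library. Mitochondrial UMIs went from 11.2% to 4.3% in WT and from 5.09% to 3.8% in the mutant library. Over all RPE barcodes below 2000 UMIs, they took 10.9% of WT and 5.33% of mutant UMIs. The part of this difference in the levels was not tested.

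Deeper over shallower barcodes, split at 2000 UMIs, gave a median log2 ratio over the 8 genes of 0.35 in WT, with 8 of 8 higher, and of -0.35 in the mutant library, with 8 of 8 lower. The medians of all genes were 0.18 and 0.17. *Rpe65* had 0.69 (0.47 to 0.91) in WT and -0.10 (-0.19 to -0.01) in the mutant library. *Rlbp1* had 0.51 (0.27 to 0.75) and -0.36 (-0.47 to -0.25). Without barcodes of 8000 UMIs or more, the mutant median was -0.10 and the WT median 0.30. When *Ttr* was dropped from the rule and 2 gate UMIs were asked for, both choices at once, the WT median was -0.21 with 1 gene higher and 7 lower, and the mutant median -0.93 with 8 lower. Both libraries then ran the same way. Without the *Ttr* condition, however, barcodes with little *Ttr* can enter. With 1 gate UMI or more, 199 WT and 142 mutant kept barcodes had less than 0.05% *Ttr*. Rod markers took 6.78% and 6.47% of their UMIs, and the 8 genes 0.0119% and 0.017%. The part of such barcodes in these medians was not tested.

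**Figure D3:**
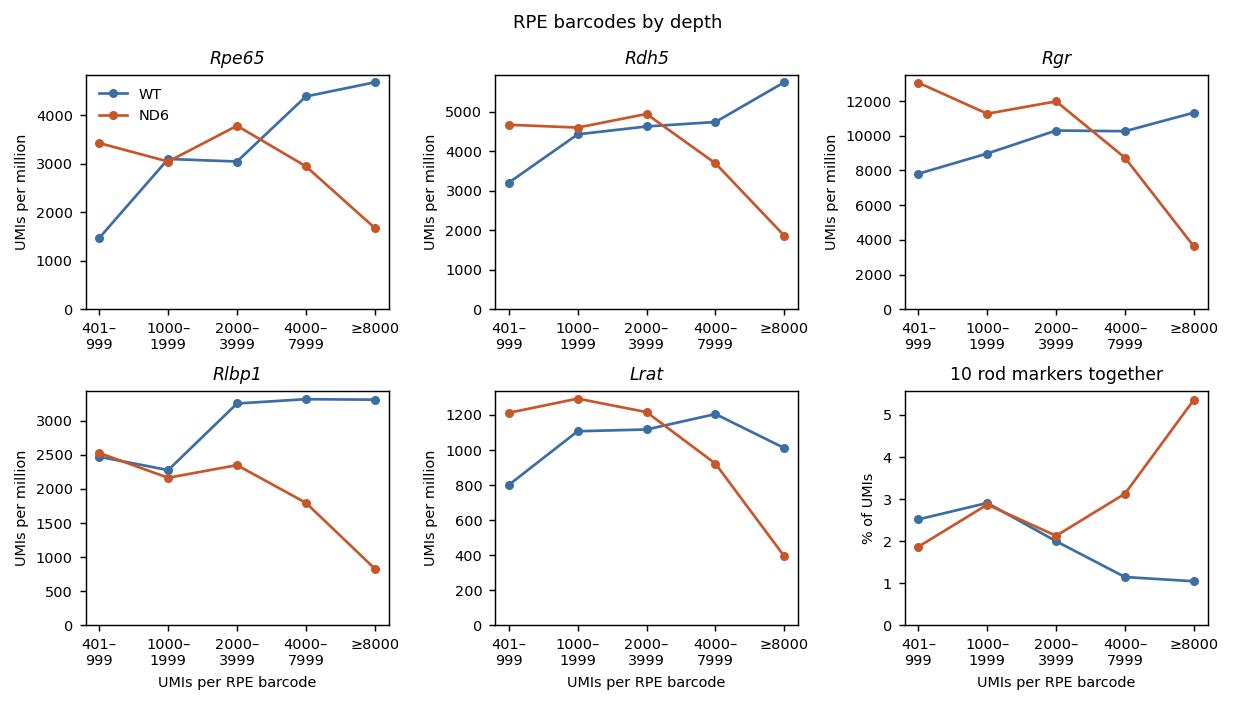
Levels of 5 of the genes (CPM) and the summed share of 10 rod markers (% of UMIs) in RPE barcodes grouped by their number of UMIs, in 1 WT (blue) and 1 ND6 (orange) library, with all axes from 0. In the ND6 library the 13 barcodes of 8000 UMIs or more have the lowest levels and 5.36% rod-marker UMIs.

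The genes were also set against *Ttr*, which the rule used. Per 1000 *Ttr* UMIs in all RPE barcodes, *Rdh5* gave 81.4 UMIs in WT and 77.1 in the mutant library, *Rpe65* 66.2 and 57.1, *Stra6* 10.7 and 10.1, *Rdh10* 24.2 and 22.2, and *Rrh* 5.5 and 4.92. *Rlbp1* gave 50.2 and 37.5, *Rgr* 167 and 190, and *Lrat* 16.5 and 19.9. With *Ttr* as the scale, the log2 ratio of *Rlbp1* was -0.29 below and -0.45 at or above 2000 UMIs. *Dct*, which the rule used, stood further off, with 39.7 WT and 15.4 mutant UMIs per 1000 *Ttr* UMIs. Across the 172 deeper barcodes of each library, the shares of the 9 genes were related, with Spearman's rho above 0 in all 36 pairs. It ran from 0.01 to 0.67 in WT and from 0.28 to 0.81 in the mutant library. The highest were *Rdh10* with *Rgr* in WT and *Rdh5* with *Rgr* in the mutant library. Barcodes with more rod RNA had lower shares of every gene, with rho from -0.58 to -0.22 in WT and from -0.73 to -0.39 in the mutant library. These values share barcodes, depth, and rod RNA, and are given as a description.

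Thinned to the smallest number of UMIs in a kept barcode, a UMI of *Rpe65* would be seen in 72.4% of deeper WT and 64.1% of deeper mutant barcodes, and in 49.8% and 66.1% of the shallower ones. Unthinned, the shares were 98.3% and 95.9%, and 69.6% and 82.9%. For *Rlbp1* the thinned shares were 68.5% and 51.1% in the deeper and 53.7% and 58.5% in the shallower barcodes. In rod-like barcodes, which should lack *Rpe65*, the thinned share was 0.411% in WT and 0.29% in the mutant library.

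Outside the RPE, the 9 genes fell into 2 sets. Each level is given as a percentage of the level in RPE barcodes of the same library. In rod-like barcodes (9091 WT and 12159 mutant), *Ttr* was at 0.0976% in WT and 0.0988% in the mutant library, *Rpe65* at 0.128% and 0.144%, *Rdh5* at 0.131% and 0.148%, *Rgr* at 0.125% and 0.118%, *Lrat* at 0.18% and 0.151%, and *Stra6* at 0.228% and 0.13%. *Rlbp1*, *Rdh10*, and *Rrh* were above these, at 1.4% and 2.63%, 1.34% and 1.07%, and 0.518% and 0.655%. Their lower interval bounds lay above the upper bounds of the other 6 genes in both libraries. In cone-like barcodes (640 and 1121) the same 3 genes led, with *Rdh10* at 1.63% and 1.17%, *Rlbp1* at 0.987% and 1.87%, and *Rrh* at 0.58% and 0.773%.

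Barcodes of 10 to 100 UMIs are called free RNA here, but what they hold was not tested. They were 7324 of 1553114 WT and 8621 of 1428687 mutant barcodes with any UMI. Mitochondrial UMIs took 18% and 8.72% of their UMIs. These barcodes carried *Ttr* at 2.05% of the RPE level in WT and 1.65% in the mutant library, *Rgr* at 2.49% and 1.56%, and *Rdh5* at 1.76% and 1.3%. *Rlbp1* was at 8.02% and 12.9% there. In absolute terms, *Rpe65* stood at 102 and 23.1 CPM in these barcodes (23 and 9 UMIs) and at 5.52 and 4.41 CPM in rod-like barcodes. In rod-like and cone-like barcodes each of the 9 genes had a lower CPM than in free RNA. For *Lrat* and *Rrh* in WT and for *Lrat* and *Stra6* in the mutant library the intervals met, since free RNA held 2 UMIs of each, or 3 for mutant *Lrat*. The intervals of WT *Rdh10* also met for cone-like barcodes (22.66 to 28.85 CPM) and free RNA (27.42 to 92.69 CPM, 12 UMIs). Per 1000 *Ttr* UMIs, *Rgr* gave 213 UMIs in WT and 227 in mutant rod-like barcodes, against 167 and 190 in RPE barcodes and 203 and 180 in free RNA. *Rlbp1* gave 719 and 998 in rod-like barcodes, against 50.2 and 37.5 in RPE barcodes and 196 and 293 in free RNA. *Rdh10* gave 333 and 240 in rod-like barcodes, 24.2 and 22.2 in RPE barcodes, and 39.9 and 55.1 in free RNA. The rod-like intervals of *Rlbp1* and *Rdh10* lay above those of free RNA and RPE barcodes in both libraries, and the source of these UMIs was not tested. *Ttr* entered the rule, and barcodes that met the rule were left out of the rod-like class but not of free RNA. The *Ttr* scale is therefore not independent of the rule.

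**Figure D4:**
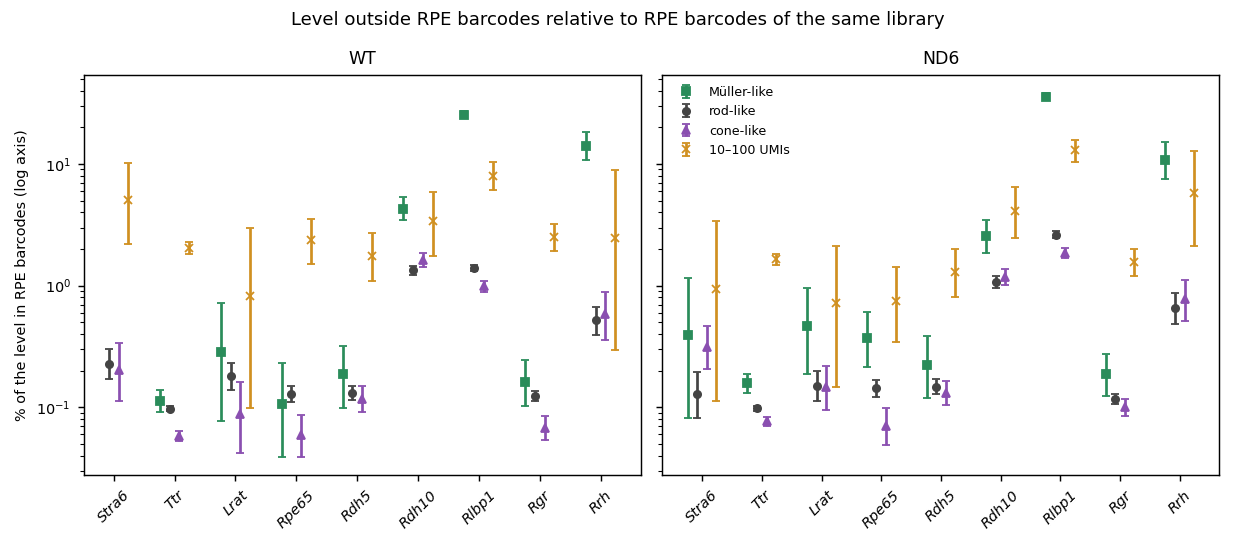
Level of each gene in Müller-like, rod-like, and cone-like barcodes and in barcodes of 10 to 100 UMIs, as a percentage of its level in RPE barcodes of the same library (log axis), for WT (left) and ND6 (right). Bars are exact conditional 95% intervals. *Rlbp1* reaches 25.4% and 35.7% in Müller-like barcodes, while *Ttr* stays at 0.114% and 0.158%.

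In Müller-like barcodes (347 WT and 634 mutant), *Rlbp1* stood at 828 CPM in WT (779 to 879) and 721 CPM in the mutant library (677 to 766), or 25.4% and 35.7% of the RPE level. A UMI of *Rlbp1* was found in 49.3% of WT and 58.5% of mutant Müller-like barcodes, and in 13.3% and 10.7% of rod-like ones, at medians of 1593 and 1405.5 UMIs against 1762 and 1362. Thinned as above, the shares were 21.6% and 26.2% in Müller-like and 2.56% and 2.39% in rod-like barcodes. *Rrh* stood at 50.2 and 28.6 CPM, or 14% and 10.8% of the RPE level, and *Rdh10* at 67.7 and 30.7 CPM, or 4.3% and 2.58%. *Rlbp1* was above its free RNA level in both libraries and *Rrh* in WT, whereas the intervals of *Rrh* in the mutant library and of *Rdh10* in both met those of free RNA (5.82% for *Rrh*, 3.38% and 4.09% for *Rdh10*). Per 1000 *Ttr* UMIs, *Rdh10* gave 918 UMIs in WT and 361 in mutant Müller-like barcodes against 39.9 and 55.1 in free RNA, and mutant *Rrh* gave 336 against 17.4, with intervals apart. Here too, the class left out barcodes that met the *Ttr* rule while free RNA did not, so this scale does not set the genes apart from free RNA independently of the rule. Of the WT UMIs in the class, 29 barcodes of 1 cluster held 681 of 1089 for *Rlbp1* and 57 of 66 for *Rrh*. In the cluster with 201 WT barcodes, *Rlbp1* stood at 280 CPM (225 to 344), an interval that met that of free RNA (261 CPM), and *Rrh* gave 1 UMI. The 9 Müller markers took 0.0963% and the 10 rod markers 8.95% of WT UMIs in that cluster, against 0.505% and 5.69% in the whole class. In the whole class, *Rpe65* gave 6 and 16 UMIs, *Lrat* 4 and 7, and *Stra6* 0 and 3. The 0 for *Stra6* allows, as a limit of 3 counts, up to 2.28 CPM or 0.865% of the 347 barcodes, and the exact 95% upper limits were 2.80 CPM and 1.06%.

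The mutant over WT ratio in Müller-like barcodes depended on which of the 4 clusters of the class were counted. The log2 ratio was -0.20 (-0.33 to -0.08) for *Rlbp1*, -0.81 (-1.42 to -0.22) for *Rrh*, and -1.14 (-1.70 to -0.60) for *Rdh10*. The 4 clusters held 109, 201, 8, and 29 WT barcodes and 362, 182, 79, and 11 mutant barcodes, so most WT barcodes lay in the second and most mutant barcodes in the first. The third had a median of 48437.5 UMIs per barcode in WT and 1434 in the mutant library, and held 391649 of the 1315507 WT UMIs of the class. The fourth, led in Müller markers with 1.32% of WT and 0.937% of mutant UMIs, held *Rlbp1* at 56.8% and 64% of the RPE level, *Rrh* at 43.3% and 36.6%, and *Rdh10* at 10.9% and 9.21%. Without it, the ratios were 0.59 for *Rlbp1*, 1.08 for *Rrh*, and -0.40 for *Rdh10*. As a mean over barcodes, *Rdh10* had a ratio of 0.21. In the first cluster *Rlbp1* was at 25.5% and 40.7%, and in the second at 8.6% and 14.7%. These percentages use the RPE level of each library, which for *Rlbp1* was 3254 CPM in WT and 2017 CPM in the mutant library. In CPM, its log2 ratio was -0.02 (-0.25 to 0.22) in the first cluster and 0.09 (-0.37 to 0.54) in the second. It was 0.29 (-0.15 to 0.71) in the third and -0.52 (-0.75 to -0.29) in the fourth. Of the 7 members with at least 20 UMIs here, *Rpe65* was past 2-fold higher (16 against 6 UMIs; 1.32, -0.10 to 2.97) and *Rdh10* past 2-fold lower. Of all 9828 genes, 3.3% were past 2-fold higher and 4.08% past 2-fold lower. Drawn from marker UMIs instead of clusters, the Müller-like class held 24 WT and 59 mutant barcodes.

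In rod-like barcodes, at levels below free RNA, *Rdh10* stood at 21.1 CPM in WT and 12.8 CPM in the mutant library (-0.72, -0.90 to -0.55). In cone-like barcodes it stood at 25.6 and 14 CPM (-0.87, -1.14 to -0.61). *Rdh10* was below 0 in both classes under all 5 alternatives, from -0.74 to -0.22 and from -0.88 to -0.36. *Rlbp1* stood at 45.5 and 53 CPM in rod-like barcodes (0.22, 0.12 to 0.32), and the 9 Müller markers took 0.0147% and 0.0298% of UMIs there. Under the 5 alternatives, the rod-like ratio of *Rlbp1* ran from -0.29 to 0.24 and was below 0 in 2. Only *Stra6* was past 2-fold in rod-like barcodes, at 54 WT and 24 mutant UMIs (-1.17, -1.93 to -0.45), where 9.88% of genes were past 2-fold higher and 1.25% past 2-fold lower. In cone-like barcodes none of the 9 was past 2-fold, against 4.27% higher and 1.25% lower over all genes.

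The order of the classes was read from counting intervals for the 3 shared genes over 8 classes. *Rlbp1* was highest in RPE, then in Müller-like barcodes, in both libraries. In the mutant library, amacrine-like (298 CPM) and bipolar-like (225 CPM) barcodes followed, each separate from the next by its interval, whereas in WT the amacrine-like, bipolar-like, and red blood cell barcodes (94.7, 84.3, and 103 CPM) could not be ordered. The 9 Müller markers took 0.0659% of WT and 0.159% of mutant UMIs in amacrine-like and 0.0335% and 0.129% in bipolar-like barcodes, and the mutant free RNA interval of *Rlbp1* (211 to 315 CPM) met the amacrine-like one (270 to 328 CPM). Their part in this order was not tested. *Rrh* was highest in RPE and then in Müller-like barcodes in both libraries, and the other 6 classes could not be ordered step by step. *Rdh10* had the same order in WT, while in the mutant library the interval of Müller-like barcodes met that of microglia- or macrophage-like ones (24.1 CPM). *Rpe65* was separate in RPE alone, at 4293 CPM in WT and 3070 CPM in mutant barcodes, with 11.5 CPM or less elsewhere.

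The genes whose levels over 21 clusters were most like each member were named by Pearson's r of log2(CPM + 10), over 42 points from both libraries and 12829 genes. *Rdh5* and *Rgr* led each other's lists (r = 0.977), and *Ttr* was most like *Ptgds*, prostaglandin D2 synthase (0.973), then *Rgr* (0.970) and *Slc16a8* (0.951). *Rpe65* was most like *Slc16a8* (0.968), *Stra6* like *Slco1a4* (0.986), and *Lrat* like *Col8a2* (0.989). *Rlbp1* was most like *Cryab*, a small heat shock protein of glia and lens (0.979), then *Dapl1* (0.959) and *Ndrg2* (0.944). *Rrh* was most like *Enpp2*, autotaxin (0.953), and *Rdh10* like *Iqgap2* (0.936) and *Stra6* (0.935). The points share libraries and depth, and no test was made.

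Among 34 other genes of retinoid handling, 16 had at least 20 UMIs in the deeper RPE barcodes. Of these, 8 had a higher and 8 a lower mutant level (median -0.02, against 0.17 over all genes), with 3 past 2-fold higher and 0 past 2-fold lower, where 15.2% and 4.4% of all genes were. *Degs1*, proposed as a retinol isomerase, stood at 802 CPM in WT and 450 CPM in mutant barcodes (-0.84, -1.02 to -0.66). The photoreceptor gene *Rbp3*, the interphotoreceptor retinoid-binding protein, was past 2-fold higher, with 296 CPM in WT and 1029 CPM in mutant barcodes (1.80, 1.62 to 1.98), beside the rod-marker shares of 1.21% and 3.27% given above. The other members past 2-fold were the receptor genes *Rara* (9 and 12 UMIs) and *Rxrb* (17 and 23 UMIs). Below 2000 UMIs, 9 genes of the list could be read, with 5 higher, 4 lower, and 0 past 2-fold.

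In Müller-like barcodes, 20 of the 34 could be read, with 1 past 2-fold higher and 3 past 2-fold lower, where 3.3% and 4.08% of all genes were. *Cyp26b1*, a retinoic acid hydroxylase, gave 12 WT and 34 mutant UMIs (1.41, 0.43 to 2.50). *Cyp26a1* gave 25 and 12 UMIs, *Crabp1*, a retinoic acid-binding protein, 22 and 8, and *Rdh13* 14 and 6. In rod-like barcodes *Rxrg*, *Lpl*, and *Lrp1* were past 2-fold higher, on 8, 7, and 58 WT against 28, 22, and 122 mutant UMIs, which is 3 of 25 read beside 9.88% of all genes. In cone-like barcodes *Aldh1a3* was past 2-fold lower, on 24 and 13 UMIs, which is 1 of 23 read beside 1.25% of all genes.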

How the data were processed

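Retina of 1 WT and 1 ND6 mouse library was profiled with the 10x Genomics Chromium 3′ kit. The authors aligned reads to mm10 with Cell Ranger 3.0.2, per the labels, and deposited raw UMI counts per gene and barcode for all barcodes, without normalization. The annotation release is not given in the sources used here. Gene positions were taken from GENCODE M21 and promoters from RefSeq.

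UMIs were summed per library over a group of barcodes and scaled to 1000000 UMIs (CPM). Sums have exact Poisson, shares exact Clopper-Pearson, and ratios exact conditional 95% intervals, which cover counting error only. With 1 library per genotype no p-value was computed, and past the fold means a 2-fold difference with at least 20 UMIs over both libraries. The code was tested on simulated data. The limits on barcodes were those of the study.

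For classes other than RPE, the 9 genes, the 34 other retinoid genes, and mtDNA-encoded genes were left out. Counts were log-normalized, 3000 variable genes were scaled within library, and 30 principal components and 20 neighbours entered Leiden clustering at resolution 1 (leidenalg 0.10.2). Clusters were called by fixed marker lists, with a rule settled after the clusters were seen: at least 3 markers and 80% of the list raised 2-fold, a median log2 gap of 1 to the next eligible list, and own markers not outnumbered among the leading 10 genes. Clusters with Müller and neuronal markers were first divided again. Remaining clusters were called rod-like when 3 rod markers were raised over the named non-photoreceptor clusters. RPE barcodes by the rule take precedence over clusters. The genes named in the text are the 9 members, other retinoid genes past the fold in a class, genes given by the likeness measure (3 per member at most), and markers; *Degs1* and the range of 2000 to below 4000 UMIs were picked after their values were seen. Members and lists were chosen with earlier results of these data known. No doublet caller was run. Some genes of the lists are not reported here.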

Additional observations from a re-analysis of the deposited data

Results flagged for a closer look

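With the rule as used, the relation of the genes to depth ran in opposite directions in the 2 libraries, which was not tested, since each genotype has 1 library. The log2 ratio of deeper over shallower RPE barcodes had a median over 8 genes of 0.35 in WT and -0.35 in the mutant library. Of the single genes whose intervals lay wholly on opposite sides of 0, *Rpe65* had 0.69 in WT and -0.10 in the mutant library, *Rdh5* 0.37 and -0.30, *Rlbp1* 0.51 and -0.36, and *Rgr* 0.33 and -0.44. *Ttr*, which the rule used and which supports nothing here, had 0.40 and -0.31. With no *Ttr* condition and 2 gate UMIs the medians were -0.21 in WT and -0.93 in the mutant library, so the directions were no longer opposite. That choice can also admit barcodes with little *Ttr* and much rod RNA, and their part was not tested. The rod-marker shares given above moved with depth in the opposite direction in each library, and their part in this difference was not tested.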

How the results depend on the processing

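No paired analysis was possible because each genotype has 1 library. Of 586 values recomputed under alternatives, 358 stayed within the main interval (counts within 1.5 times), 227 moved beyond it, and 1 past 2-fold reversed: *Rdh10* in Müller-like barcodes, 0.21 as a mean over barcodes. The median over the 8 genes (main values in the report) moved as follows; alternatives chosen after seeing the data are the ranges of 2000 to below 4000 and to below 8000 UMIs, the RPE-like cluster, *Slc16a8* alone as the gate, the *Ttr* scale, and leaving out 8000 UMIs or more or a Müller-like cluster. In the shallower RPE barcodes it was 0.57 with the boundary at 1000 UMIs and 0.55 for the RPE-like cluster. In the deeper ones it was -0.69 with median-of-ratios scaling, -0.27 as a mean over barcodes, -0.30 with *Ttr* at 1% or more, -0.89 with the boundary at 4000 UMIs, 0.06 with rod markers at most 1%, -0.31 from 2000 to below 8000 UMIs, -0.06 from 2000 to below 4000 UMIs, and -0.08 on the *Ttr* scale. For deeper over shallower barcodes, dropping *Ttr* from the rule and asking for 2 gate UMIs together gave -0.21 in WT and -0.93 in the mutant library, and for the latter a mean over barcodes gave -0.14 and leaving out 8000 UMIs or more -0.10. In rod-like barcodes (-0.22) it was 0.17 with classes from marker UMIs. Over all kept barcodes (-0.42) it was 0.98 as a mean over barcodes, -0.25 with no mtDNA limit, and -0.64 from 1000 UMIs. RPE barcodes below 2000 UMIs numbered 102 in WT with no mtDNA limit, and 33 in WT and 263 in the mutant library from 1000 UMIs, where the mutant total was 435. With genes of at least 1 UMI, 6362 were past 2-fold higher and 1813 lower below 2000 UMIs, and 3830 and 1911 above. Causes were not tested beyond these choices. *Rrh*, *Stra6*, and *Lrat* rest on few UMIs outside the RPE, and differences under their intervals were not detectable at this depth.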

Other observations

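Over all kept barcodes, without classes, the 8 genes were lower in the mutant library (median log2 ratio -0.42, against 0.07 over all genes), while as a mean over barcodes, which weights each barcode equally, 8 of 8 were higher (median 0.98). RPE barcodes were 1.82% of kept WT and 4.22% of kept mutant barcodes. *Rpe65* stood at 112 CPM in WT and 73.8 CPM in the mutant library, and *Rlbp1* at 148 and 137 CPM. RPE barcodes held 5733 of the 6094 WT and 4116 of the 4644 mutant *Rpe65* UMIs, but 4346 of 8054 and 2704 of 8635 *Rlbp1* UMIs. Of the 11 RPE markers, 10 had at least 20 UMIs in RPE barcodes of 2000 UMIs or more. Of these, 5 were past 2-fold lower in the mutant library and 0 past 2-fold higher. Of all genes, 4.4% were past 2-fold lower and 15.2% higher there, and rod markers took 1.21% of WT and 3.27% of mutant UMIs. The markers past 2-fold lower were the melanin-pathway and melanosome genes *Dct*, *Tyrp1* (304 and 103 CPM), *Pmel* (393 and 123 CPM), *Mlana* (160 and 29.8 CPM), and *Tyr* (241 and 96.1 CPM), of which *Dct* also entered the rule. Where rod markers took at most 1% of UMIs, *Dct* stood at 3070 CPM in WT and 1132 CPM in mutant barcodes. *Tyrp1* stood at 346 and 159 CPM there, and *Pmel* at 351 and 97.3 CPM. *Mlana* and *Tyr* were not read in that subset.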
